A study of Homo sapiens with 12 samples.

Results

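The genes described here are NRF2, its partners and its best-known targets, together with the enzymes that remove peroxides and superoxide. The list names 38 genes, grouped by function, and 37 of them have a row among the 36601 genes measured. A mean of at least 10 normalized counts over the 12 libraries was reached by 34 of these genes, and they are among 15376 genes of that level that were tested. RNA was measured in KP4 cells, a human pancreatic cancer cell line that the labels describe as ductal carcinoma of wild-type genotype, after 24 h in DMSO (vehicle), in 10 mM metformin (Met), in 5 nM FK866 (FK) or in both drugs (Met+FK), with 3 libraries for each of the 4 treatments. Metformin is an inhibitor of respiratory complex I in mitochondria, and FK866 inhibits NAMPT, the enzyme that recycles nicotinamide to NAD+. All libraries come from 1 line, and nothing in the labels says that the replicates were separate cultures, so the p-values measure the spread between these libraries, which may be technical.

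NRF2, encoded by NFE2L2, is a transcription factor that is held at a low level in unstressed cells because KEAP1 binds it and hands it to a ubiquitin ligase. Electrophiles and oxidants modify cysteines of KEAP1, NRF2 then accumulates, pairs with a small Maf protein and binds antioxidant response elements, while BACH1 competes for the same elements as a repressor. Much of this control acts on the NRF2 protein, which RNA counts do not show. The targets make glutathione and keep it reduced, supply electrons to thioredoxin and peroxiredoxins, degrade haem and quinones, and export conjugates.

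Each library held between 30667735 and 41052203 read pairs on genes. Of 8 ductal and epithelial markers, 7 had a mean of at least 10, EPCAM did not, and the summed level of the list was 25327 to 26266 normalized counts in DMSO, 19378 to 22878 in FK, 16512 to 19694 in Met and 16238 to 19672 in Met+FK. Most of that sum was KRT18, at 17937 to 18721 in DMSO and 9500 to 11538 in Met. All Met libraries lay below DMSO for KRT18, KRT19 and KRT8 and above it for SOX9, CDH1 and EPCAM, while KRT7 and MUC1 overlapped. Of the lists for other cells, 1 of 6 acinar markers had a mean of at least 10 (CEL, 7.41 to 35.5), as did 2 of 5 fibroblast markers (COL1A1, 52.0 to 307, and PDGFRB, 7.08 to 42.9), 1 of 4 endothelial markers (VWF, 12.5 to 43.3) and 2 of 5 leukocyte markers (CD68, 721 to 1010, and PTPRC, 101 to 304). AMY2A, CPA1, DCN and KDR of these lists were at 0 in all 12 libraries. The summed fibroblast level was 140 to 203 in DMSO, 239.7 to 316 in FK, 80.3 to 112 in Met and 90.9 to 115 in Met+FK. Most of it was COL1A1, and PDGFRB went the other way in Met+FK, at 31.3 to 42.9 against 10.8 to 25.6 in DMSO. The part of these lists in the results was not tested. A normalized count is the number of read pairs on a gene divided by the size factor of its library. In RNA pooled from a plate of cells, fewer cells with a transcript and fewer transcripts per cell cannot be told apart. Fold changes are given on the log2(normalized count + 1) scale with their standard error (SE), from limma-trend with Benjamini-Hochberg adjustment over all genes tested. A gene is said to have risen or fallen where its adjusted p was under 0.05 and its fold change over 1.5, and "passed at a smaller fold" means that only the adjusted p met its threshold.

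The core of the antioxidant response element, searched here as TGACNNNGC on both strands, occurred in 7 of the 28 members for which a RefSeq promoter window (GRCh38.p14, 250 bases before to 50 after a start site) was at hand. That is 25.0% of these members against 16.1% of all 27305 genes with a window. A gene can have several windows, and by window the match occurred in 8 of 46 (17.4%) against 13.3% of all 35116. The 7 were KEAP1, MAFF, CBR1, EPHX1, GCLM, MGST1 and TXNRD1. Matches of 4 of them are shown, including 2 of the 3 of TXNRD1 (1 for each start site), because these genes took different courses, MAFF and TXNRD1 being higher with drug, GCLM passing at a smaller fold and CBR1 being lower. Capitals mark the searched core, and each sequence is read 5′ to 3′ on the strand that carries it. The stretch at the later TXNRD1 start and those of GCLM and MAFF overlap an annotated exon of the same gene.
TXNRD1, chr12:104215670-104215698, plus strand, 99 bases before a start, in no annotated exon: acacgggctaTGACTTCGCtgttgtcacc
TXNRD1, chr12:104286920-104286948, minus strand, 102 bases before a later start: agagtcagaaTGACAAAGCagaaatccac
GCLM, chr1:93909446-93909474, plus strand, 34 bases before a start: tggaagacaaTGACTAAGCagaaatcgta
MAFF, chr22:38201862-38201890, minus strand, 122 bases before a start: cgcccccgtaTGACCCCGCcccctggaag
CBR1, chr21:36069855-36069883, minus strand, 159 bases before the start and inside an exon of CBR1-AS1: ccagctagccTGACTTTGCagaacccgca
A match is a description of these letters and does not show that NRF2 binds there. HMOX1, CBR3, GSS, GSR, AKR1B10, ABCC1, ABCC3, PRDX1, PRDX6 and SOD1 had no window to search.

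Metformin raised 5 of the 34 members, NFE2L2, HMOX1, GCLC, SRXN1 and OSGIN1, and lowered 2, CBR3 and PRDX2. The largest of these changes was that of HMOX1, which encodes the haem-degrading enzyme haem oxygenase 1, at 2.41 (SE 0.25). These 7 calls are 20.6% of the members, whereas 23.0% of all genes tested were called in this comparison, 12.8% higher and 10.2% lower, so the share of members called lay close to that of the transcriptome. By adjusted p alone 12 members were higher and 11 lower, where 24.9% and 25.9% of all genes passed. FK866 raised 2 members in limma-trend, NFE2L2 and GCLC, against 2.73% of all genes, and lowered 0, against 0.754%. In edgeR and DESeq2 the same 2 and GCLM rose, where 3.42% and 2.65% of all genes did, and 0 members fell. With no fold threshold the FK counts were 8 higher and 3 lower, where 11.3% and 9.84% of all genes passed. The DMSO and FK libraries of the same replicate number deviated together. With that number as a block shared by all 4 treatments, 14 members were higher and 5 lower by adjusted p alone, against 23.3% and 21.3% of all genes. With a block within metformin status, 14 were higher and 10 lower, against 3972 and 3803 of all 15376 genes. The members that passed for FK with the shared block but not without it were HMOX1, MAFF, NQO1, PRDX3, SOD2 and SRXN1 on the higher side. On the lower side they were CBR3 and GSS, and all passed at a smaller fold.

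Both drugs together raised 7 members and lowered 2 relative to DMSO, against 13.7% and 11.3% of all genes. The 7 were the 5 genes raised by metformin, with MAFF and TXNRD1 in addition, and the 2 were again CBR3 and PRDX2. By adjusted p alone 11 were higher and 9 lower, against 26.1% of all genes in each direction. Relative to FK866 alone, the combination raised HMOX1, SRXN1 and OSGIN1 and lowered CBR3, PRDX3 and ABCC2, against 9.27% and 9.29% of all genes. By adjusted p alone 8 were higher and 9 lower, against 20.5% and 21.7%. Relative to metformin alone, 0 of the 34 members passed in limma-trend, where 0.0585% of all genes were called. The comparisons with DMSO share the same 3 DMSO libraries, so their calls are not independent of each other. The median log2 fold change of the 34 members was 0.05 in Met against DMSO, 0.05 in FK against DMSO and 0.10 in Met+FK against DMSO, and the medians of all genes tested were 0.01, -0.02 and 0.01.

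**Figure D1:**
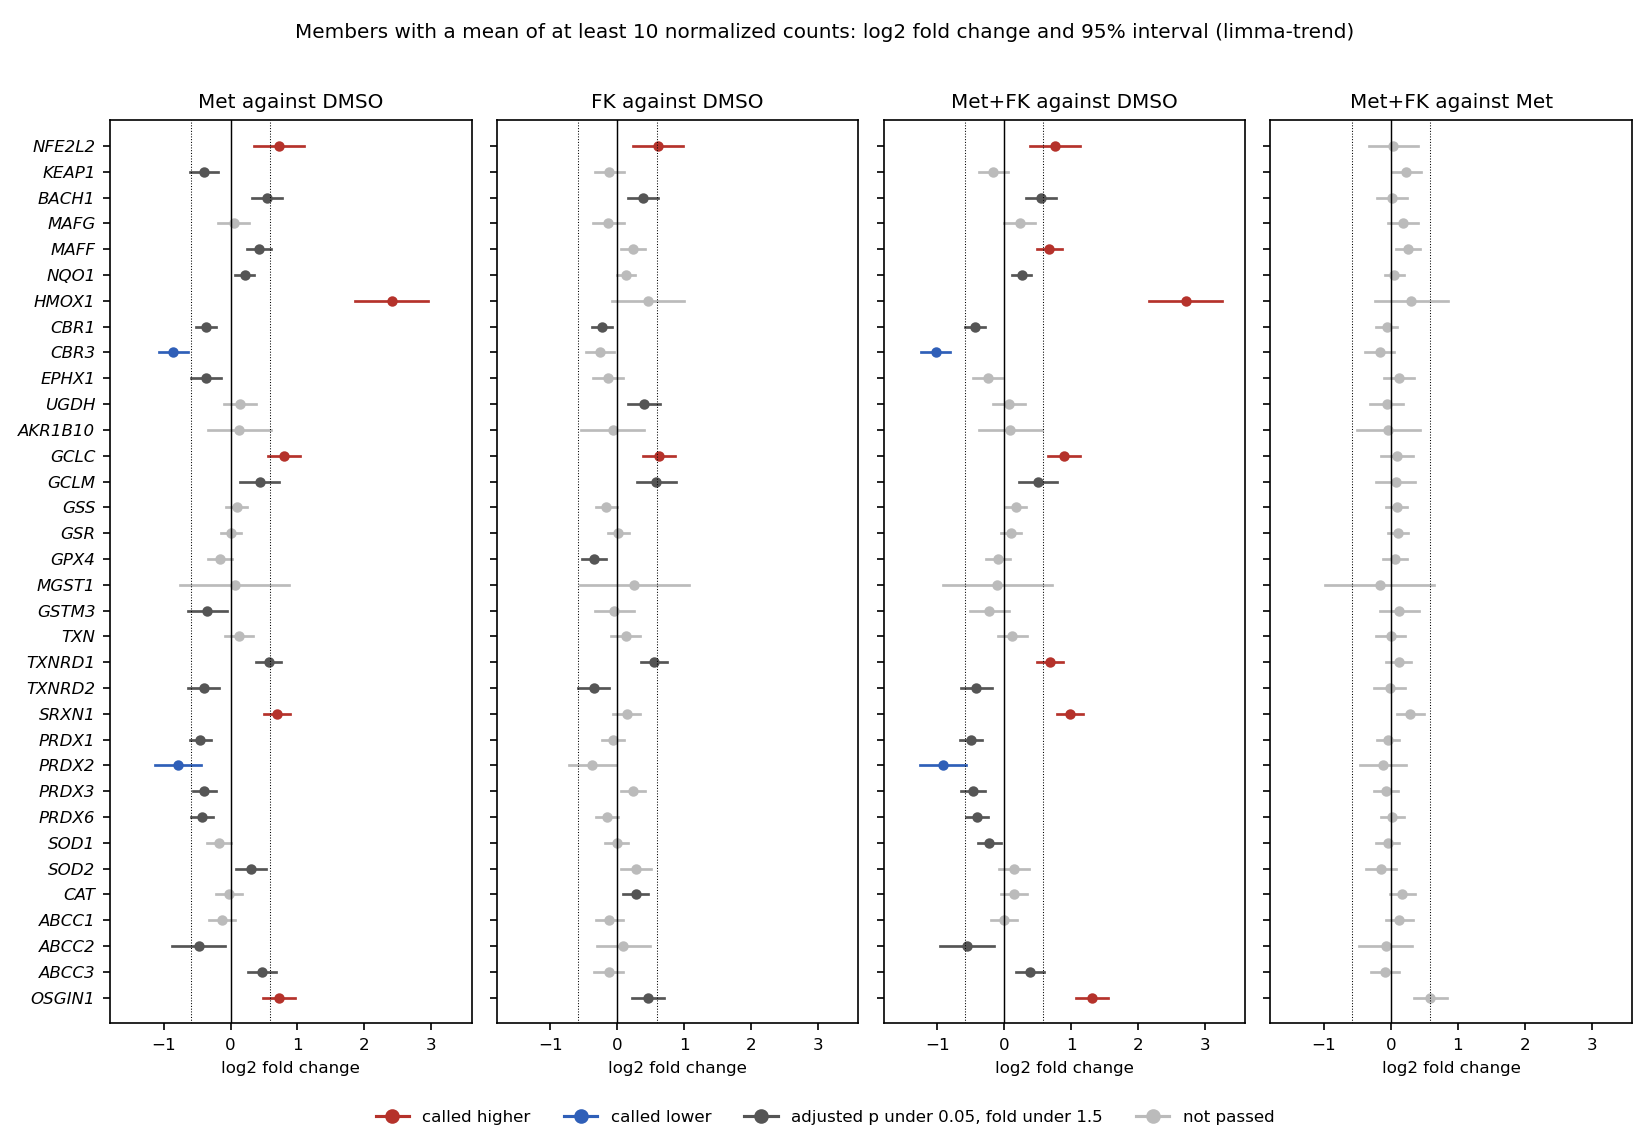
Log2 fold change of the 34 members (points) with 95% intervals (lines) in 4 comparisons, from limma-trend. Genes are ordered by role, the dotted lines mark a fold of 1.5, and HMOX1 stands apart at 2.41 in Met against DMSO and 2.71 in Met+FK against DMSO while no member is coloured as called in Met+FK against Met.

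Among the 5 regulators, NFE2L2 (chromosome 2 from 177227595 to 177392697, hg38) was the only one whose transcript rose with either drug alone. It was at 2564, 3294 and 2351 normalized counts in DMSO replicates 1 to 3, at 3572, 5564 and 3537 in FK, at 5027, 5019 and 3546 in Met, and at 4615, 4870 and 4280 in Met+FK. No treated library overlapped the DMSO libraries, but FK replicate 2 stood well above the other FK libraries. The increases were 0.72 (SE 0.17, adjusted p = 0.0029) for Met, 0.61 (SE 0.17, adjusted p = 0.031) for FK and 0.76 (SE 0.17, adjusted p = 0.0019) for Met+FK. The FK call was lost without FK replicate 2 (adjusted p = 0.131), without DMSO replicate 1 (0.126) or without DMSO replicate 3 (0.101), and when only the libraries compared were fitted (0.0711). An unnamed lncRNA on the same strand covers 19.8% of the exon bases of NFE2L2.

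KEAP1 (chromosome 19 from 10486125 to 10503558), the inhibitor, passed at a smaller fold in the opposite direction with metformin. Its values were 4088, 3313 and 3643 in DMSO, 3856, 3040 and 3297 in FK, 2787, 2615 and 3004 in Met, and 3366, 3083 and 3414 in Met+FK. The Met libraries lay below all DMSO libraries and also below all Met+FK libraries, while FK and Met+FK overlapped DMSO. The difference was -0.39 (SE 0.10, adjusted p = 0.0042) for Met against DMSO and 0.23 (SE 0.10, adjusted p = 0.69) for Met+FK against Met.

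MAFF (chromosome 22 from 38200767 to 38216507), which encodes a small Maf partner of NRF2, was at 866, 999 and 1049 in DMSO, at 1184, 1111 and 1124 in FK, at 1258, 1303 and 1335 in Met, and at 1458, 1558 and 1629 in Met+FK. The 4 treatments did not overlap and stood in the order DMSO, FK, Met, Met+FK. It rose with Met+FK (0.68, SE 0.09, adjusted p = 1.3e-05), passed at a smaller fold for Met (0.42, SE 0.09, adjusted p = 0.00081), and the FK difference was 0.23 (SE 0.09, adjusted p = 0.058). MAFG, another small Maf gene, ranged from 2398 to 3874 over all 12 libraries and passed only in Met+FK against FK, by 0.36 (adjusted p = 0.013). BACH1, the competing repressor, passed at a smaller fold in the same direction as NFE2L2, at 0.54 (SE 0.10, adjusted p = 0.00064) for Met, 0.38 (SE 0.10, adjusted p = 0.029) for FK and 0.56 (SE 0.10, adjusted p = 0.00046) for Met+FK. The FK difference of BACH1 missed the threshold without DMSO replicate 1, DMSO replicate 3 or FK replicate 2 (adjusted p between 0.0949 and 0.132).

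Of the 7 enzymes tested that act on quinones, haem, carbonyls, epoxides and sugar nucleotides, HMOX1 moved most. HMOX1 (chromosome 22 from 35380361 to 35394207) was at 4032, 2292 and 1954 in DMSO, at 4732, 3601 and 2748 in FK, at 18207, 12524 and 11854 in Met, and at 22599, 14671 and 15300 in Met+FK. Every library with metformin lay far above every library without it, FK overlapped DMSO, and replicate 1 was the highest in each of the 4 treatments. The log2 fold change was 2.41 (SE 0.25, adjusted p = 3.1e-06) for Met and 2.71 (SE 0.25, adjusted p = 7.2e-07) for Met+FK against DMSO, and 2.25 (SE 0.25, adjusted p = 5.8e-06) for Met+FK against FK. For FK against DMSO it was 0.46 (SE 0.25, adjusted p = 0.18). With the replicate number as a block, which removes the shared height of replicate 1, the same FK difference of 0.46 had an adjusted p of 0.0012.

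NQO1 (chromosome 16 from 69706996 to 69726668), which encodes the quinone reductase most often used as a readout of NRF2, changed little. It was at 21751, 20713 and 19717 in DMSO, at 24509, 21936 and 21583 in FK, at 24815, 23925 and 23284 in Met, and at 25456, 24289 and 24638 in Met+FK. The Met and Met+FK libraries all lay above DMSO, and the FK libraries overlapped it. It passed at a smaller fold for Met (0.21, SE 0.07, adjusted p = 0.014) and Met+FK (0.26, SE 0.07, adjusted p = 0.004), and the FK difference was 0.13 (SE 0.07, adjusted p = 0.15). An unnamed antisense lncRNA covers 19.35% of the exon bases of NQO1, so its reads may be included.

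The carbonyl reductases went the other way. CBR3 (chromosome 21 from 36135079 to 36146562) was at 796, 701 and 748 in DMSO, at 692, 579 and 604 in FK, at 397, 403 and 438 in Met, and at 376, 393 and 335 in Met+FK. Libraries with metformin were all below libraries without it, and the FK libraries were all below DMSO. The change was -0.86 (SE 0.10, adjusted p = 8.3e-06) for Met, -1.02 (SE 0.10, adjusted p = 1.1e-06) for Met+FK and -0.26 (SE 0.10, adjusted p = 0.067) for FK. Exons of the antisense gene CBR3-AS1 cover 71.1% of the exon bases of CBR3, and the strand setting of the counting is not given in the sources used here, so reads of the antisense gene may be included. CBR1, its neighbour and relative, passed at a smaller fold in the same direction, at -0.37 (adjusted p = 0.00054) for Met and -0.44 (adjusted p = 0.00012) for Met+FK, and CBR1-AS1 covers 18.9% of its exon bases.

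EPHX1, an epoxide hydrolase, passed at a smaller fold for Met (-0.36, adjusted p = 0.0088). UGDH, which makes the UDP-glucuronate used for conjugation, passed for FK (0.40, adjusted p = 0.031), and the difference in Met against DMSO was 0.14 (adjusted p = 0.33). With each library's trend on GC content and transcript length removed, the FK difference of UGDH was 0.13 (adjusted p = 0.152). In the deposited values it missed the threshold without DMSO replicate 1, DMSO replicate 3 or FK replicate 2 (adjusted p between 0.0833 and 0.136). AKR1B10, an aldo-keto reductase, was at 34.4 to 60.6 in all libraries and passed in no comparison. The other 3 aldo-keto reductases on the list, AKR1C1, AKR1C2 and AKR1C3, did not reach the mean of 10 and were not tested. AKR1C1 was at 5.77 to 15.6, AKR1C3 at 0 to 4.09, and AKR1C2 was at 0 in 11 of the 12 libraries, and these close relatives can share reads.

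**Figure D2:**
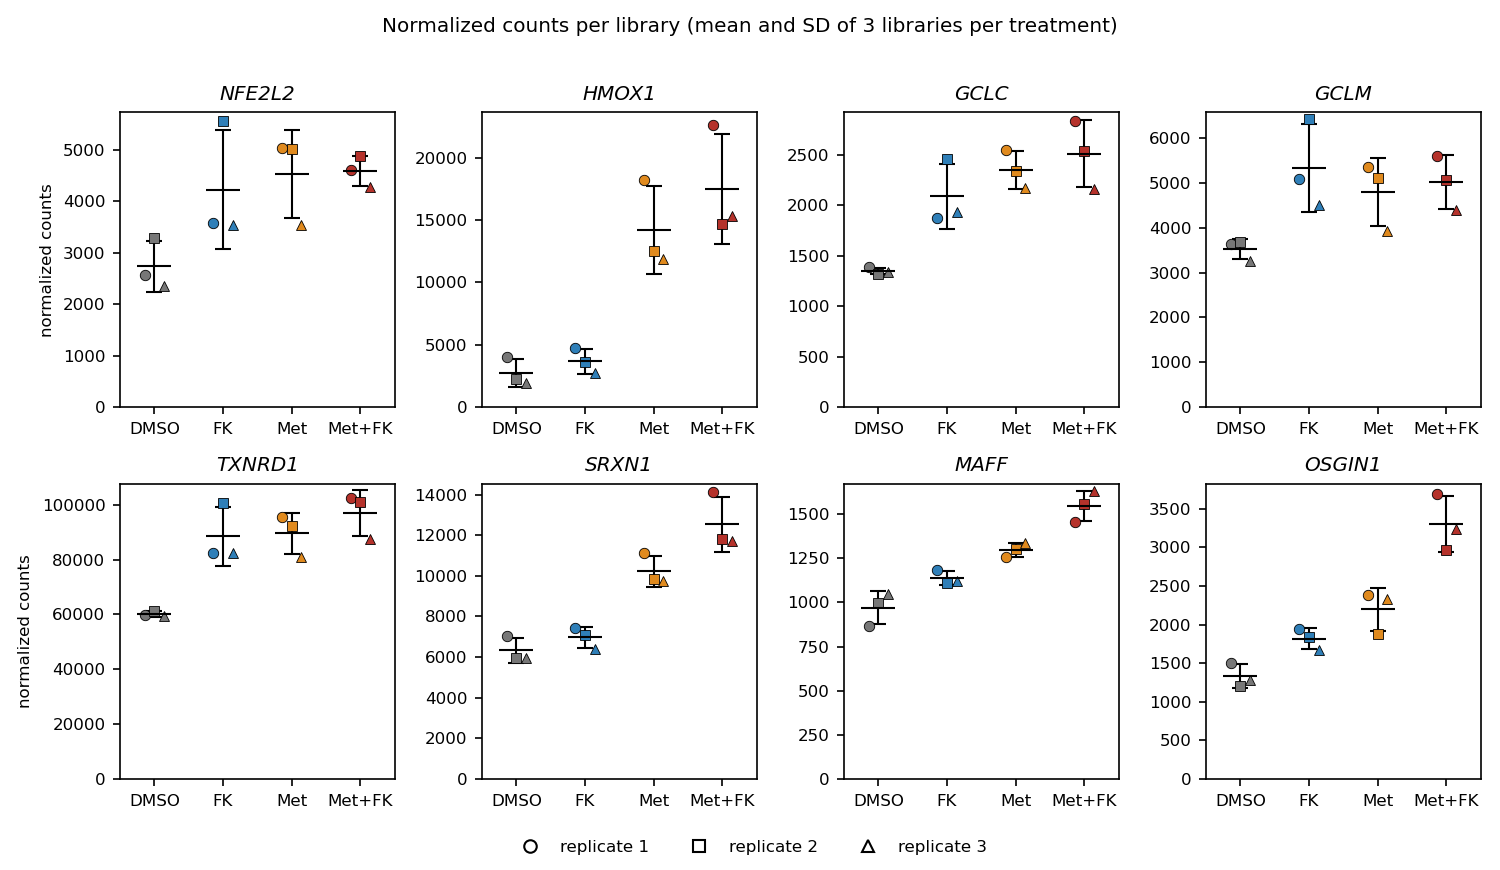
Normalized counts (linear axis from 0) of 8 members in each library by treatment, with marker shapes for replicates 1 to 3 and black bars for mean and SD of 3 libraries. HMOX1 and SRXN1 are separated by metformin, OSGIN1 and MAFF are highest in Met+FK, and FK replicate 2 is the highest FK library of NFE2L2, GCLC, GCLM and TXNRD1.

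In the glutathione group, the 2 subunits of glutamate-cysteine ligase, the rate-limiting enzyme of glutathione synthesis, were higher than DMSO in every treated library, although GCLM stayed under the fold threshold. GCLC (chromosome 6 from 53497341 to 53616970), the catalytic subunit, was at 1383, 1318 and 1341 in DMSO, at 1874, 2459 and 1927 in FK, at 2541, 2336 and 2167 in Met, and at 2829, 2538 and 2163 in Met+FK. All 9 treated libraries lay above DMSO, and the treatments overlapped among themselves. The increases were 0.80 (SE 0.11, adjusted p = 4.5e-05) for Met, 0.62 (SE 0.11, adjusted p = 0.009) for FK and 0.89 (SE 0.11, adjusted p = 1.4e-05) for Met+FK. GCLM, the modifier subunit, ranged from 3262 to 3691 in DMSO, 4495 to 6418 in FK, 3933 to 5359 in Met and 4388 to 5600 in Met+FK, again with no overlap between DMSO and any treatment. Its differences from DMSO were 0.43 (adjusted p = 0.015), 0.58 (adjusted p = 0.02) and 0.50 (adjusted p = 0.0058) for Met, FK and Met+FK, all at a smaller fold. With each library's trend on GC content and transcript length removed, they were 0.13 (adjusted p = 0.23), 0.20 (adjusted p = 0.18) and 0.27 (adjusted p = 0.019). The Met difference also missed the threshold without DMSO replicate 3, Met replicate 1 or Met replicate 2 (adjusted p between 0.0571 and 0.0754). The FK difference missed it without DMSO replicate 1, DMSO replicate 3 or FK replicate 2 (adjusted p between 0.0633 and 0.0849). When only the libraries compared were fitted, the adjusted p of the FK difference was 0.0523.

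The remaining glutathione enzymes moved less. GSS, which completes glutathione, passed only in Met+FK against FK (0.34, adjusted p = 0.0017), and GSR, which reduces oxidized glutathione, ranged from 5877 to 7016 over all libraries and passed in no comparison. GPX4, the glutathione peroxidase that reduces lipid hydroperoxides, passed at a smaller fold for FK (-0.35, adjusted p = 0.022), with 7876 to 9306 in FK against 10432 to 11407 in DMSO. This GPX4 difference missed the threshold without DMSO replicate 1, DMSO replicate 3 or FK replicate 2 (adjusted p between 0.0506 and 0.107). GSTM3, a glutathione transferase, passed for Met (-0.35, adjusted p = 0.048), and MGST1, a membrane-bound one, was at 8.78 to 31.4 and passed nowhere. The GSTM3 difference missed the threshold in edgeR (adjusted p = 0.0633) and DESeq2 (0.0654). GPX1 was not analysed here.

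In the thioredoxin and peroxiredoxin group, SRXN1 and TXNRD1 were higher with metformin, while TXNRD2 and the 4 peroxiredoxins on the list were lower. SRXN1 (chromosome 20 from 646615 to 653370), sulfiredoxin, which repairs over-oxidized peroxiredoxins, was at 7032, 5970 and 5978 in DMSO, at 7417, 7078 and 6405 in FK, at 11105, 9824 and 9767 in Met, and at 14115, 11800 and 11694 in Met+FK. DMSO and FK overlapped, the Met libraries lay above both, and the Met+FK libraries lay above all Met libraries. It rose by 0.70 (SE 0.09, adjusted p = 2.9e-05) with Met and by 0.99 (SE 0.09, adjusted p = 8.3e-07) with Met+FK relative to DMSO, and by 0.84 (SE 0.09, adjusted p = 5.0e-06) with Met+FK relative to FK.

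TXNRD1 (chromosome 12 from 104215779 to 104350307), the cytosolic thioredoxin reductase, was at 59738, 61242 and 59559 in DMSO, at 82296, 100764 and 82310 in FK, at 95659, 92121 and 81150 in Met, and at 102519, 101157 and 87455 in Met+FK. All treated libraries lay above DMSO and overlapped among themselves. It rose with Met+FK (0.69, SE 0.09, adjusted p = 1.6e-05) and passed just under the fold threshold for Met (0.57, SE 0.09, adjusted p = 0.0001) and FK (0.55, SE 0.09, adjusted p = 0.0043). After removal of each library's trend on GC content and length, the Met+FK increase was 0.57 (adjusted p = 2.95e-06), under that threshold too. TXNRD2, the mitochondrial form, passed at a smaller fold in the opposite direction, at -0.40 (adjusted p = 0.0068) for Met, -0.36 (adjusted p = 0.037) for FK and -0.42 (adjusted p = 0.0049) for Met+FK. The FK difference of TXNRD2 missed the threshold without DMSO replicate 1, DMSO replicate 3 or FK replicate 2 (adjusted p between 0.0927 and 0.151). TXN, thioredoxin itself, ranged from 11180 to 14350 over all libraries and passed in no comparison.

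The 4 peroxiredoxins on the list, which reduce hydrogen peroxide, were lower with metformin, PRDX2 past the fold threshold and the others at a smaller fold. PRDX4 and PRDX5 are not members and are named among the other antioxidant genes counted below. PRDX2 (chromosome 19 from 12796820 to 12801800) was at 200, 181 and 173 in DMSO, at 174, 130 and 127 in FK, at 92.0, 107 and 123 in Met, and at 81.5, 104 and 109 in Met+FK. Libraries with metformin were all below libraries without it, and FK overlapped DMSO. It fell by 0.79 (SE 0.16, adjusted p = 0.00095) with Met and by 0.91 (SE 0.16, adjusted p = 0.00027) with Met+FK, and the antisense overlap covers 12.1% of its exon bases. With those trends removed, the Met difference was -0.57 (adjusted p = 0.00155), just under the fold threshold.

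PRDX3 (chromosome 10 from 119167720 to 119178812), the mitochondrial peroxiredoxin, was at 8852, 10249 and 8952 in DMSO, at 11168, 11712 and 10178 in FK, at 7181, 7701 and 6515 in Met, and at 6905, 6929 and 6432 in Met+FK. The metformin libraries were the lowest, and FK overlapped the top of DMSO. The difference from DMSO was -0.39 (SE 0.08, adjusted p = 0.0012) for Met, -0.47 (SE 0.08, adjusted p = 0.00028) for Met+FK and 0.24 (SE 0.08, adjusted p = 0.052) for FK, and Met+FK against FK reached -0.70 (SE 0.08, adjusted p = 8.7e-06). PRDX1, a cytosolic form, ranged from 24594 to 30654 in DMSO and 19510 to 20680 in Met (-0.45, adjusted p = 0.00023), with 25.2% of its exon bases antisense to MMACHC. PRDX6, which uses glutathione, ranged from 7400 to 8367 in DMSO and 5592 to 6038 in Met (-0.43, adjusted p = 0.0004). For FK against DMSO the differences were -0.07 for PRDX1, -0.37 for PRDX2 and -0.16 for PRDX6, with adjusted p between 0.097 and 0.50.

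**Figure D3:**
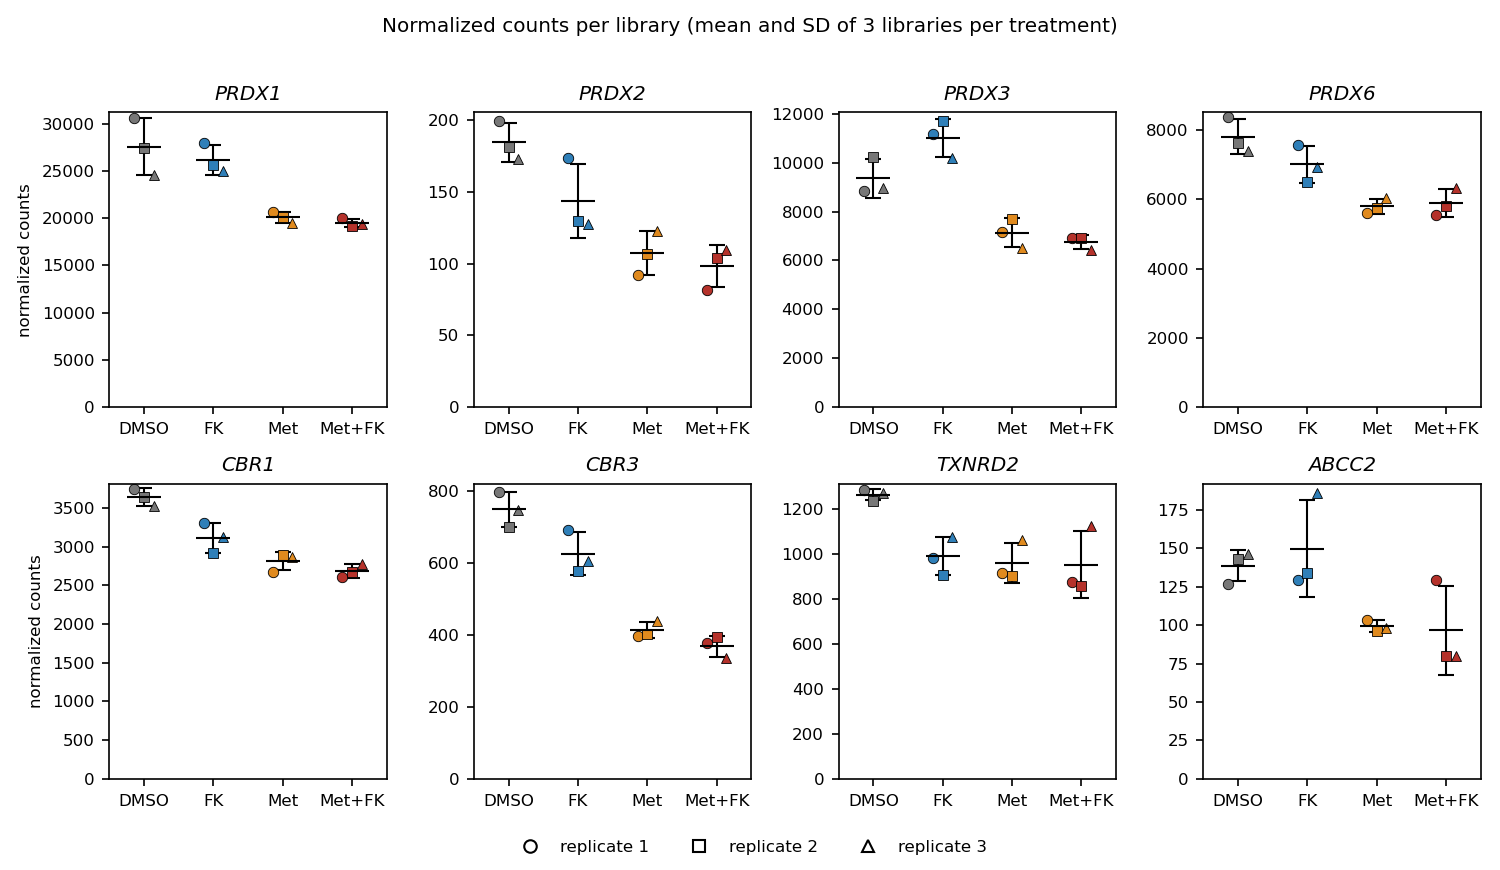
Normalized counts (linear axis from 0) of 8 members in each library by treatment, with marker shapes for replicates 1 to 3 and black bars for mean and SD of 3 libraries. The Met and Met+FK libraries lie below the DMSO libraries for the 4 peroxiredoxins, CBR1, CBR3 and TXNRD2, and PRDX3 is highest in FK.

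The superoxide dismutases and catalase stayed within the fold threshold in every comparison. SOD2, the mitochondrial manganese enzyme, passed for Met (0.30, adjusted p = 0.027), and SOD1, the cytosolic enzyme, passed for Met+FK (-0.22, adjusted p = 0.032). Without Met replicate 1 SOD2 missed the threshold (adjusted p = 0.13), as SOD1 did in edgeR (adjusted p = 0.0557). CAT, which encodes catalase, passed for FK (0.27, adjusted p = 0.044), and its Met difference was -0.02 (adjusted p = 0.86). The FK difference of CAT kept an adjusted p under 0.05 in 2 of 6 fits with a library left out.

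The 3 conjugate export pumps differed from each other. ABCC2 (chromosome 10 from 99782640 to 99852594) was at 127, 143 and 146 in DMSO, at 129, 134 and 186 in FK, at 103, 96.4 and 98.4 in Met, and at 130, 79.9 and 80.0 in Met+FK. The Met libraries lay below all DMSO libraries, while Met+FK replicate 1 fell within the DMSO and FK range. It fell in Met+FK against FK (-0.65, SE 0.19, adjusted p = 0.012), a call that was lost without FK replicate 3 (adjusted p = 0.0668), Met+FK replicate 2 (0.0598) or Met+FK replicate 3 (0.0561). ABCC3 passed at a smaller fold in the other direction, with 1079 to 1334 in Met against 817 to 911 in DMSO (0.47, adjusted p = 0.0011). ABCC1 ranged from 2112 to 2660 and passed in no comparison.

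OSGIN1 (chromosome 16 from 83931311 to 83966332), a growth inhibitor induced by oxidative stress, was at 1504, 1208 and 1278 in DMSO, at 1941, 1837 and 1674 in FK, at 2386, 1879 and 2328 in Met, and at 3697, 2971 and 3240 in Met+FK. The DMSO libraries were lowest, FK and Met overlapped, and every Met+FK library lay above all others. It rose by 1.31 (SE 0.11, adjusted p = 3.2e-07) with Met+FK against DMSO, by 0.72 (SE 0.11, adjusted p = 0.00011) with Met and by 0.86 (SE 0.11, adjusted p = 2.7e-05) in Met+FK against FK. For FK against DMSO it passed at a smaller fold (0.45, SE 0.11, adjusted p = 0.023). That difference missed the threshold without DMSO replicate 1, DMSO replicate 3 or FK replicate 2 (adjusted p between 0.0538 and 0.0722). With only the libraries compared, its adjusted p was 0.058. Exons of MLYCD on the same strand cover 8.22% of the exon bases of OSGIN1.

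What FK866 adds to metformin was examined in Met+FK against Met. There 0 of 34 members passed in limma-trend, and edgeR and DESeq2 also called 0 at a fold over 1.5. With 3 libraries per treatment, this does not show that FK866 adds nothing. An unadjusted p under 0.05 was found for 4 members (and for 6.84% of all genes). The 4 were OSGIN1, SRXN1, MAFF and KEAP1, all higher in Met+FK and with no overlap between the groups, where 7.88% of all genes were higher with no overlap. OSGIN1 had the largest difference, 0.59 (SE 0.11, adjusted p = 0.0686), and DESeq2 gave it an adjusted p of 0.00126 at 0.58, just under the fold threshold. When only the libraries compared were fitted, OSGIN1 was called (adjusted p = 0.017). With the GC and length trend removed it passed at a smaller fold (0.52, adjusted p = 0.0313). The replicates of Met and Met+FK with the same number deviated together. With the number as a block shared by all 4 treatments, the OSGIN1 difference of 0.59 had an adjusted p of 0.00187 and was called. With a block within metformin status, its adjusted p was 8.5e-05. The other 3 differences were 0.29 (SE 0.09) for SRXN1, 0.25 (SE 0.09) for MAFF and 0.23 (SE 0.10) for KEAP1. With the shared block, the adjusted p was 0.0171 for SRXN1, whose fold stayed under 1.5.

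The interaction, which is the effect of FK with metformin minus its effect without, passed for 0 of 34 members in limma-trend, where 0.0585% of all genes passed, and 12 members had an unadjusted p under 0.05, as did 30.5% of all genes. edgeR called 0, and DESeq2 called 4.52% of all genes and 2 members, GCLC (-0.54, adjusted p = 0.0442) and TXNRD1 (-0.45, adjusted p = 0.0461). For GCLC the FK difference was 0.62 without metformin and 0.09 with it (interaction -0.53, SE 0.16, adjusted p = 0.11), for NFE2L2 it was 0.61 and 0.03 (-0.57, SE 0.24, adjusted p = 0.14), and for TXNRD1 it was 0.55 and 0.11 (-0.43, SE 0.13, adjusted p = 0.11). HMOX1 and OSGIN1 had interactions of -0.16 (SE 0.36, adjusted p = 0.78) and 0.14 (SE 0.16, adjusted p = 0.57). With the replicate number as a block, 32.0% of all genes passed, and so did 13 of the 34 members, 5 in the positive and 8 in the negative direction, GCLC, NFE2L2, TXNRD1 and GCLM among the latter. With that block, the share of all genes was 15.5% in the positive and 16.5% in the negative direction. With a block within metformin status, 41.5% of all genes passed, and 8 members did in each direction. With the shared block and the GC and length trend removed, 3.32% of all genes and 0 of 33 members passed. GCLC then stood at -0.38 (adjusted p = 0.0795) and GCLM at -0.06 (adjusted p = 0.665).

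GC content moved with the FK comparison. Across genes, the slope of the library's log2 values on GC content was 0.14 ± 0.084 (SD, n = 3) per 10 percentage points in DMSO and -0.089 ± 0.136 in FK, and every FK library lay below every DMSO library. FK replicate 2 stood apart at -0.245, with 0.003 and -0.025 in FK replicates 1 and 3. The Met+FK slope was -0.003 ± 0.058. With this trend and that of transcript length removed, which could be done for 33 of the 34 members, FK raised 1 member, OSGIN1 (0.70, adjusted p = 0.00142), in place of NFE2L2 and GCLC, while the share of all genes raised went from 2.73% to 1.10%. NFE2L2 was then at 0.45 (adjusted p = 0.0524) and GCLC at 0.49 (adjusted p = 0.00602). GCLM, with the GC-poor transcript of the pair (37.3% GC against 44.2% in GCLC), went from 0.58 to 0.20 (adjusted p = 0.181), and BACH1 from 0.38 to 0.01 (adjusted p = 0.96). The GC-rich GPX4 and TXNRD2 went from -0.35 and -0.36 to -0.07 and -0.11. With the replicate block in the same fit, 1.44% of all genes rose, HMOX1 was called in addition to OSGIN1 (0.71, adjusted p = 0.000465), and NFE2L2 (adjusted p = 0.0057), GCLC (0.00232) and GCLM (0.0208) passed at a smaller fold. In Met against DMSO, where the Met slope was -0.048 ± 0.114, the removal left NQO1 at 0.13 (adjusted p = 0.069), and KEAP1 at -0.21, BACH1 at 0.24, CBR1 at -0.20, TXNRD2 at -0.21 and EPHX1 at -0.15, each with an adjusted p under 0.05. The part of the GC trend in these differences was not tested.

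**Figure D4:**
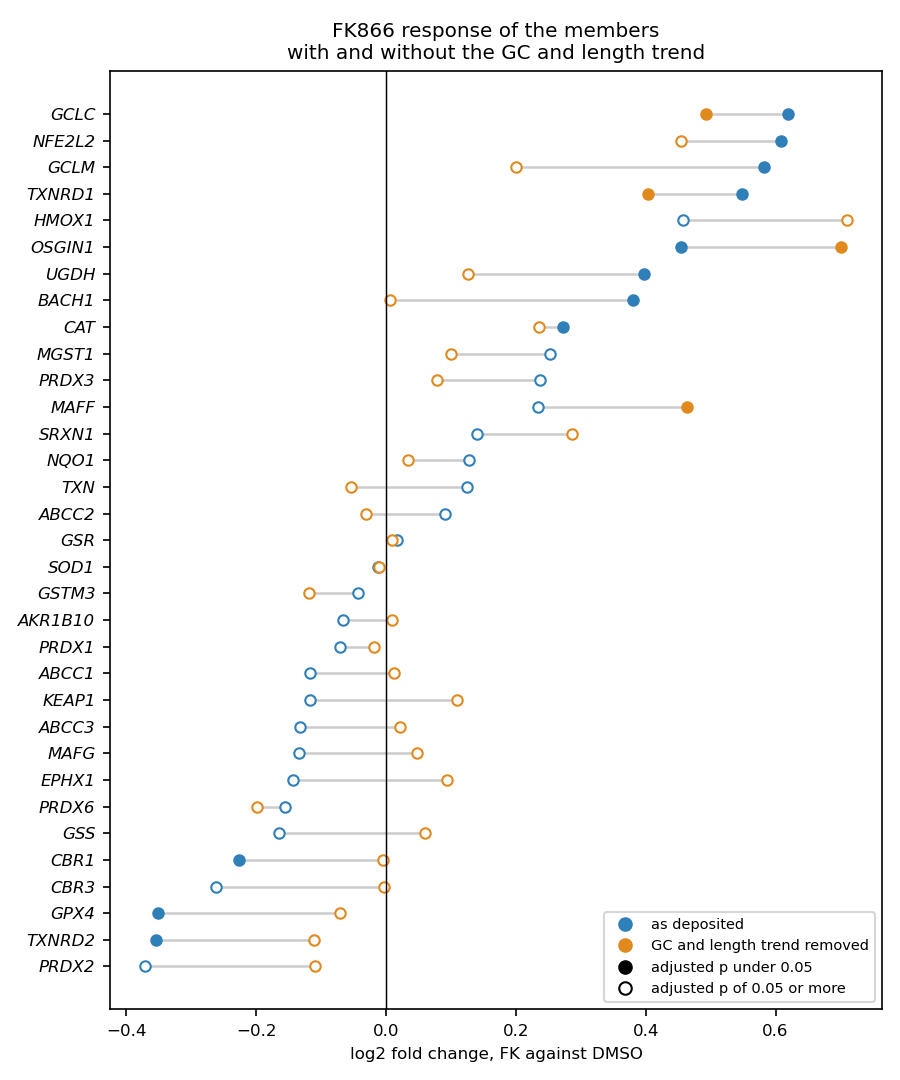
Log2 fold change of FK against DMSO for 33 members in the deposited values (blue) and after removal of each library's trend on GC content and transcript length (orange), with filled points for an adjusted p under 0.05 in limma-trend. GCLC, TXNRD1 and OSGIN1 are filled in both, while NFE2L2, GCLM and BACH1 are among those filled only in the deposited values.

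Genes of the same pathway outside the list, also chosen with earlier results of these data known, were counted alongside. Of all genes tested, 12.8% rose and 10.2% fell with Met, 2.73% and 0.754% with FK, and 13.7% and 11.3% with Met+FK. Of 28 other NRF2 targets, 25 were tested, and 9 rose and 0 fell with metformin, 2 rose and 0 fell with FK, and 9 rose and 0 fell with both drugs, with medians of 0.22, -0.05 and 0.30. Of these, SLC7A11, the cystine importer that feeds glutathione synthesis, went from 2321 ± 519 (SD, n = 3) in DMSO to 4822 ± 1366 in FK, 8793 ± 1343 in Met and 8243 ± 982 in Met+FK. Its increases were 1.04 (SE 0.18, adjusted p = 0.0069) for FK, 1.93 (SE 0.18, adjusted p = 1.0e-06) for Met and 1.85 (SE 0.18, adjusted p = 1.2e-06) for Met+FK. IDH1, a cytosolic source of NADPH, went from 1882 ± 200.4 to 5563 ± 541 in Met (1.56, SE 0.10, adjusted p = 4.1e-08) and 5789 ± 481 in Met+FK (1.62, SE 0.10, adjusted p = 1.6e-08).

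Of 30 other antioxidant and glutathione genes, 23 were tested. With metformin 2 fell, against 10.2% of all genes, and with both drugs 3 fell, against 11.3%. With FK 0 were called in limma-trend, where 2.73% of all genes rose and 0.754% fell. In that comparison 14 had an unadjusted p under 0.05, as did 6488 of all 15376 genes. With metformin and with both drugs 0 rose, against 12.8% and 13.7% of all genes. Of the genes that fell, MSRB1, a methionine sulfoxide reductase, changed by -0.94 (SE 0.12, adjusted p = 1.6e-05) with Met and by -0.87 (SE 0.12, adjusted p = 2.8e-05) with Met+FK. GSTO1, an omega-class glutathione transferase, fell by 0.66 (SE 0.09, adjusted p = 2.6e-05) and 0.75 (SE 0.09, adjusted p = 6.1e-06). Of 8 related factors and ligase genes, 7 were tested and 1 fell, RBX1, the ring subunit of the ligase that receives NRF2 from KEAP1, by 0.76 (SE 0.08, adjusted p = 3.2e-06) with Met and 0.80 (SE 0.08, adjusted p = 1.4e-06) with Met+FK, while its FK difference was -0.07 (adjusted p = 0.51). Of all genes tested, 10.2% fell with Met and 11.3% with Met+FK.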

How the data were processed

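Ribosomal RNA-depleted libraries of KP4 cells under the 4 treatments were sequenced as read pairs. Per the study's methods, the authors used cutadapt for trimming, STAR for alignment to hg38, featureCounts for counting and DESeq2 for normalization. The strand setting and the annotation are not given in the sources used here. The deposited signal is the count of each gene divided by the size factor of its library. All values came out as whole read pairs within 0.01 after division by the smallest step of the library. Chi-square per degree of freedom between replicates was 5.75 to 51.9, above sampling noise, so each library counted once. Positions are those of the deposited table (hg38).

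Members and gene lists were chosen with earlier results of these data known. The test was limma-trend (limma 3.58.1, R 4.3.3) on log2(normalized count + 1) and took in the 12 libraries together and the genes whose mean reached 10. On simulated data for Met against DMSO (15376 genes), the test recovered 177 of 200 genes given a 2-fold change and made 3 false calls. The simulated libraries had no shared replicate deviation and no GC trend, and only those 200 genes changed. These figures may therefore not hold for the real libraries. Members called in a pairwise comparison, with NFE2L2, KEAP1, NQO1 and HMOX1, are given in every library, and the others by range. From the other lists, the 2 largest and 2 smallest changes of Met+FK against DMSO among called genes were named. Alternatives were pseudocounts of 0.1 and 10, other filters, equal totals, TMM, edgeR 4.0.16 and DESeq2 1.42.0 on recovered read pairs, no fold threshold, only the libraries compared, a replicate block, removal of a loess trend (span 0.3) on GC content and log length of the GENCODE 44 canonical transcript, and each library left out. The replicate block was 1 effect per replicate number, shared by all 4 treatments. A block within metformin status, which follows the pairs described below, was added after the data were seen.

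Replicate numbers were read as pairs where libraries of the same number departed from the means of their treatments together, with a correlation across genes over 0.1 in each pair. This held for DMSO with FK (0.22 to 0.42) and for Met with Met+FK (0.17 to 0.23), and for no other pair of treatments. In replicates 1 to 3, the correlation was 0.01, 0.33 and 0.25 for DMSO with Met, and 0.02, 0.40 and 0.30 for FK with Met. It was 0.02 to 0.16 for DMSO with Met+FK and 0.05 to 0.24 for FK with Met+FK. Some shared deviation across metformin status was thus present in replicates 2 and 3. The pairing comes from the values, since the labels give only a number. GPX1 is not analysed here.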

Additional observations from a re-analysis of the deposited data

How the results depend on the processing

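Member counts in Met against DMSO went from 5 higher and 2 lower to 8 higher when libraries were scaled to the same total, which moved the median of all genes from 0.01 to 0.13 and all calls from 1964 higher and 1566 lower to 2835 and 1025. By adjusted p alone the members called were 12 higher and 11 lower for Met, 8 and 3 for FK, 11 and 9 for Met+FK against DMSO, and 8 and 9 for Met+FK against FK. With the GC and length trend removed, Met against DMSO gave 7 higher and 2 lower, and Met+FK against DMSO 6 and 3. FK against DMSO gave 1 higher in place of 2 with only the libraries compared and with the GC and length trend removed, and 3 higher with equal totals, TMM, edgeR and DESeq2. Leaving out 1 library at a time gave 5 to 7 higher and 2 to 2 lower for Met, 0 (without FK replicate 2) to 4 (without FK replicate 1 or 3) higher and 0 lower for FK, 7 to 8 higher and 2 to 3 lower for Met+FK against DMSO, 3 to 4 higher and 3 to 4 lower against FK, 0 against Met, and 0 to 2 in each direction for the interaction, where the 2 and 2 came without FK replicate 1. With the replicate block, Met+FK against Met gave 1 member higher in place of 0, as it did with the block within metformin status and with only the libraries compared, and the interaction gave 5 higher and 8 lower (32.0% of all genes passed), or 8 and 8 with the block within metformin status (41.5% of all genes), and DESeq2 gave 2 lower (4.52% of all genes). In the deposited values the block changed no other member call past both thresholds, and with the GC and length trend removed it took FK against DMSO from 1 to 2 higher. By adjusted p alone, FK against DMSO gave 14 higher and 5 lower with the block, and 14 and 10 with the block within metformin status. The causes of these differences were not tested. None of the recomputed values reversed in sign past a threshold, and of 432 values recomputed with a library left out, 81 lost an adjusted p under 0.05 that they had with all libraries, 30 of them in FK against DMSO. With 3 libraries per treatment, the SE of MGST1 was 0.38 and that of AKR1B10 0.22 on the log2 scale, so that a change near the fold threshold could be missed in these low genes.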
